A study of Homo sapiens with 2 samples.

Results

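The genes described here are 10 genes of superoxide and peroxide removal, out of 20037 protein-coding genes of the RefSeq table. They were the superoxide dismutases SOD1, SOD2 and SOD3, the catalase gene CAT, the glutathione peroxidases GPX1 and GPX4, the peroxiredoxins PRDX1 and PRDX3, thioredoxin (TXN) and thioredoxin reductase 1 (TXNRD1). They were chosen by name and by no cutoff on their values, to set SOD2 beside its relatives. Earlier results of these data were known when the choice was made. SOD2 itself is a gene that the study picked as a target of both proteins in these cells, so its peaks are not independent evidence for that choice. Every RUNX2 or MTA1 peak inside a gene or within 20 kb of either end was taken.

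The binding of RUNX2, a runt-domain transcription factor, and of MTA1, which belongs to the NuRD nucleosome remodelling and deacetylase complex, was mapped in untreated MDA-MB-231, a long-established cell line from a triple-negative breast tumour. In CUT&Tag, the assay named by the study, an antibody directs a transposase to chromatin and the DNA cut beside the bound protein is sequenced. Each antibody had 1 library, no control library was used here, and each library was available as a list of called peaks with a score, so depth is unknown and the identity of the cells could not be checked from markers. Antibody suppliers and library preparations differ between the labels and the study's methods, so the product behind each list is uncertain.

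Outside mitochondrial DNA there were 61700 RUNX2 peaks and 42683 MTA1 peaks. The unit of the score was not stated, so scores were read only within a list: beside each score stands the percentage of peaks of the same list with a lower score. A missing peak means that no peak was listed there, which can be a weak signal as well as none. With 1 library for each antibody no difference between the lists could be tested.

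Superoxide, mostly a by-product of respiration and of oxidases, is converted to hydrogen peroxide by superoxide dismutases, of which SOD1 works in the cytosol, SOD2 in the mitochondrial matrix and SOD3 outside the cell. Hydrogen peroxide is then removed by catalase in peroxisomes, by glutathione peroxidases at the cost of glutathione, and by peroxiredoxins, which are recharged by thioredoxin. Thioredoxin reductase returns thioredoxin to its reduced form with electrons from NADPH.

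The sequences below are those on which the account of single starts rests: starts covered by peaks of both lists at full or nearly full length (CAT, GPX4, the inner TXNRD1 start), a start covered only at its far end (innermost SOD2), and starts under no peak (SOD3, outermost TXNRD1). Each is the 250 bases before an annotated start, read 5′ to 3′ in the direction of the gene, from RefSeq on GRCh38.p14. Capitals mark bases that lay under a RUNX2 and an MTA1 peak at once.
SOD2 innermost start, chr6:159693242-159693491, minus strand: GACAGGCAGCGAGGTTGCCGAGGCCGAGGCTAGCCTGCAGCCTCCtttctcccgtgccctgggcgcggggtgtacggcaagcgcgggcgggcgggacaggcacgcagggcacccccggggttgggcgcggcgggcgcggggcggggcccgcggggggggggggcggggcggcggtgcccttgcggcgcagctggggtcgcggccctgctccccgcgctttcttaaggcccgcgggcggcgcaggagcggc
SOD3, chr4:24795323-24795572, plus strand: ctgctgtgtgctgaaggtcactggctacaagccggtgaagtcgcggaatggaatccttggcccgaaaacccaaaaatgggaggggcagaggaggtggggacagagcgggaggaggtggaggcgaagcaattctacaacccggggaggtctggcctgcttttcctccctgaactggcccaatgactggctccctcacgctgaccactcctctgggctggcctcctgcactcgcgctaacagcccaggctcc
CAT, chr11:34438684-34438933, plus strand: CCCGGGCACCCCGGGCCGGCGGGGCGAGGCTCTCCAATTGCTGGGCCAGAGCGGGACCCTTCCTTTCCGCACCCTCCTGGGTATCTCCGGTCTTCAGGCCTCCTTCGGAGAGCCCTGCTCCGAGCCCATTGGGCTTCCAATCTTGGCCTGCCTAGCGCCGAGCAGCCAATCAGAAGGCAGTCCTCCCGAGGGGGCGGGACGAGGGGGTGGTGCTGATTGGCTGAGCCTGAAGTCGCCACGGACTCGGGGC
GPX4 first start, chr19:1103744-1103993, plus strand: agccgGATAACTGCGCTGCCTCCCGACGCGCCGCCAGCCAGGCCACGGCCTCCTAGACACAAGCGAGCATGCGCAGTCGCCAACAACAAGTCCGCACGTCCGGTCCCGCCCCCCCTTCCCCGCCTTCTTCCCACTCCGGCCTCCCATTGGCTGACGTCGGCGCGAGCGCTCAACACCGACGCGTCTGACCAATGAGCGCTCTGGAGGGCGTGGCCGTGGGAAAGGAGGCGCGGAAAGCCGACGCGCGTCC
TXNRD1 outermost start, chr12:104215529-104215778, plus strand: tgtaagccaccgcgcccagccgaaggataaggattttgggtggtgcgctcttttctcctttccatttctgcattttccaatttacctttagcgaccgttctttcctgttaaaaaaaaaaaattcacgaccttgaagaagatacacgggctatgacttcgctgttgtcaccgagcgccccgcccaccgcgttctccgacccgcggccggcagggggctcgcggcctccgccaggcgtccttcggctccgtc
TXNRD1 inner start, chr12:104286782-104287031, plus strand: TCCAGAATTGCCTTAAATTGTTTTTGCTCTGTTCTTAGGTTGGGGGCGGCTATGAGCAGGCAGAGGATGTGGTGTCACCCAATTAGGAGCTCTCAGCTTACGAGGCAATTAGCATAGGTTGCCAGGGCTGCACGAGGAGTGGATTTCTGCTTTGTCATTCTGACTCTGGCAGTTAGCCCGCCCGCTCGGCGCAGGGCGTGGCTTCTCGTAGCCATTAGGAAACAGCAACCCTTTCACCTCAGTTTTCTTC

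RUNX2 peaks were listed at 9 of the 10 genes and MTA1 peaks at 10 of 10. SOD3, the extracellular dismutase, was the gene without a RUNX2 peak. Such peaks were common: in the same reach, a peak was listed for RUNX2 at 84.4% of all protein-coding genes, for MTA1 at 79.7% and for both at 76.9%, against 9 of 10 members with both. The counts at the starts stood beside lower backgrounds. A RUNX2 peak lay within 1 kb of an annotated start at 9 of 10 members, where 49.8% of protein-coding genes had one. An MTA1 peak did so at 10 of 10 members, where the background was 51.2%. Both did so at 9 of 10 members, where the background was 44.3%. For SOD1 and PRDX1 either end of the gene was used in place of the start.

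The scores at the starts were mostly of middle rank. Only the GPX4 start (1 of 10 members, beside 14.4% of protein-coding genes) carried a RUNX2 peak among the 10000 highest-scoring of its list. CAT, GPX1 and GPX4 (3 of 10, beside 24.8%) carried such an MTA1 peak. From low to high, the strongest RUNX2 start peaks were those of TXN (60% of the list lower), TXNRD1 (64.2%), PRDX3 (67.8%), SOD1 (69%), SOD2 (75%), PRDX1 (76.3%), CAT (78%), GPX1 (83.6%) and GPX4 (88.8%). In the MTA1 list the order ran from SOD3 (30.5%) through PRDX3 (52.8%), SOD1 (57.3%), TXN (58.2%), SOD2 and PRDX1 (66.1% each), TXNRD1 (68.1%), GPX4 (82.3%) and CAT (83.4%) to GPX1 (94.3%). By these values SOD2 stood in the middle of its relatives in both lists. Its RUNX2 value, however, came from a start region shared with WTAP, and the RUNX2 peak at the SOD2 start that no other protein-coding gene shares (49.7%) ranked below the strongest start peak of every other member with one. The glutathione peroxidases and catalase stood at the upper end of both. Over all protein-coding starts, the median start peak ranked above 64.5% of the RUNX2 list and 67.2% of the MTA1 list. These medians take every start peak and not only the strongest of each gene. Taken the same way, the median start peak of the members ranked above 66% and 64.3%.

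**Figure D1:**
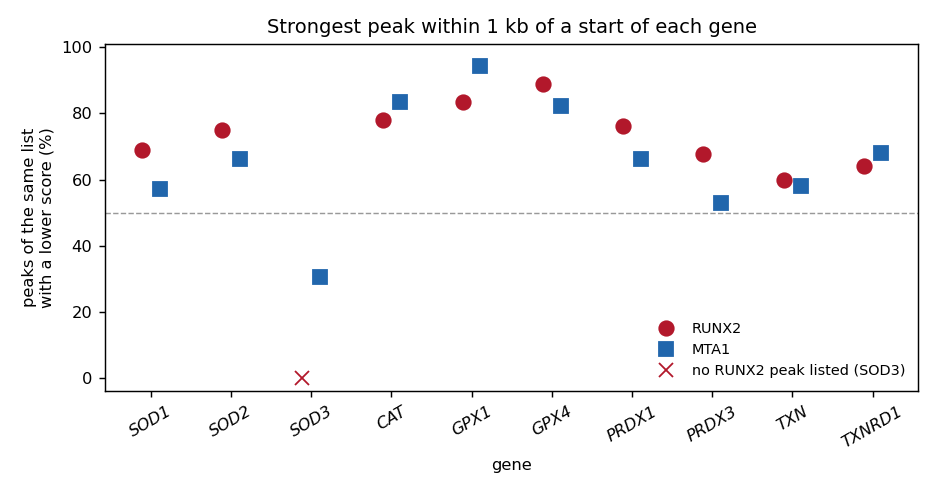
Strongest peak within 1 kb of a start of each gene (for SOD1 and PRDX1, of either end), as the percentage of peaks in the same list with a lower score (vertical axis), for RUNX2 (red circles) and MTA1 (blue squares); each point is 1 peak of 1 library, the dashed line marks the middle of a list, and the red cross marks SOD3, which had no RUNX2 peak. All points but the MTA1 point of SOD3 lie above the dashed line, with GPX4 highest for RUNX2 (88.8%) and GPX1 highest for MTA1 (94.3%).

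In all, 53 RUNX2 and 41 MTA1 peaks were found in the 715 kb searched, which is 7.41 and 5.73 peaks per 100 kb. The same reach around all protein-coding genes, merged, held 2.88 and 2.08 per 100 kb, a value in which long genes weigh most. Counted per gene, the difference was smaller. The median member had 5 RUNX2 and 3.5 MTA1 peaks, and the median protein-coding gene 3 and 2. Peaks were spread unevenly over the members: TXNRD1 had 11 RUNX2 and 9 MTA1 peaks, GPX1 10 and 6, SOD2 9 and 4, GPX4 and PRDX3 7 and 6 each, CAT 3 and 3, TXN 3 and 2, PRDX1 2 and 3, SOD1 1 and 1, and SOD3 0 and 1. A count grows with the length searched, which ran from 41.2 kb at GPX1 to 175 kb at TXNRD1. Per 100 kb, GPX1 led with 24.3 RUNX2 and 14.6 MTA1 peaks, and GPX4 (16.4 and 14) and PRDX3 (13.7 and 11.7) followed, whereas TXNRD1 had 6.3 and 5.16 and SOD2 6.76 and 3.

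Of the 53 RUNX2 peaks, 18 lay at a start of a member, 13 elsewhere inside a member, 5 at the start of another protein-coding gene and 17 outside, away from any such start. The 41 MTA1 peaks divided into 14, 8, 6 and 13. The peaks outside start regions lay mainly inside the long gene TXNRD1 and around the short genes GPX1 and GPX4, which are crowded by neighbours. Further such peaks lay at SOD2 and PRDX3. Peaks near a member are therefore not all peaks of that member, and which gene they act on was not tested.

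**Figure D2:**
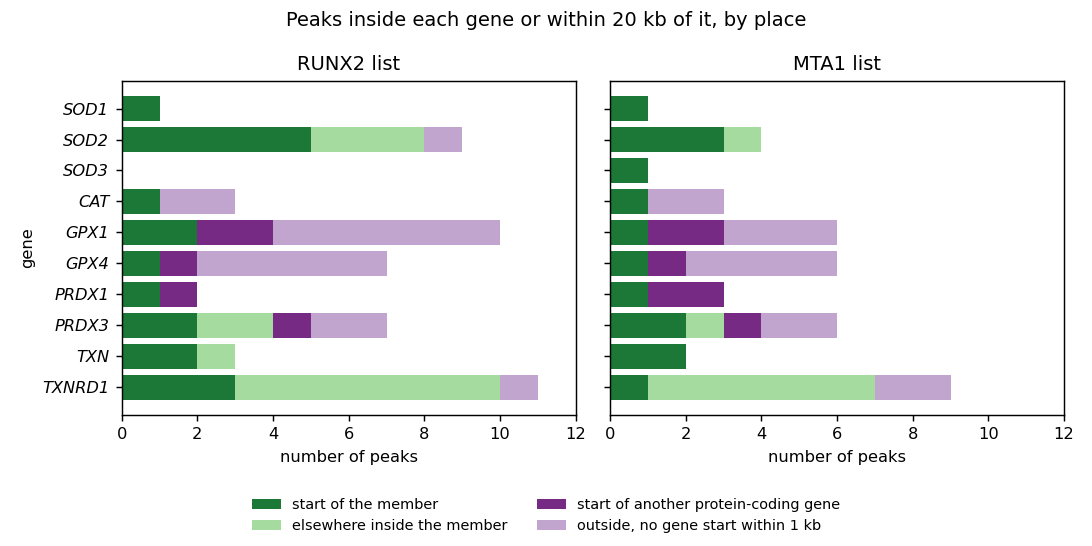
Number of peaks (horizontal axis) inside each gene or within 20 kb of it, for the RUNX2 list (left) and the MTA1 list (right), with bar segments for the place of the peak. Start peaks (dark green) are present at 9 genes in the RUNX2 list and at 10 in the MTA1 list; the bars of GPX1 and GPX4 are mostly peaks outside the gene (purple shades), and those of TXNRD1 mostly peaks elsewhere inside it (light green).

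Overlap between the lists was counted at these genes and set beside its share over all peaks. Of the 53 RUNX2 peaks, 34 (64.2%, exact 95% binomial interval 49.8 to 76.9%) shared at least 1 bp with an MTA1 peak, beside 45.4% of all RUNX2 peaks and 48.6% of those in reach of protein-coding genes. Of the 41 MTA1 peaks, 33 (80.5%, interval 65.1 to 91.2%) shared at least 1 bp with a RUNX2 peak, beside 65.5% of all MTA1 peaks and 66.9% in reach of protein-coding genes. These intervals cover counting error over peaks only, and neighbouring peaks are not independent. At the starts of the members the lists overlapped in 14 of 18 RUNX2 and 13 of 14 MTA1 peaks, beside 75.9% and 76.2% at all protein-coding starts. Start peaks made up 18 of 53 and 14 of 41 peaks at the members. Over the whole lists they made up 11389 of 61700 and 11137 of 42683. The shares over all peaks are therefore not like for like with those of the members. Elsewhere inside the members, 5 of 13 RUNX2 and 5 of 8 MTA1 peaks overlapped, beside 45.4% and 65.5% of all peaks of those lists. No share for peaks at such places over all genes is given here. The counts inside the genes are small, and their difference from the starts was not tested.

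The overlaps made 34 pairs. Their centres lay 27.5 bp apart in the median and at most 160 bp apart. By the percentage of its own list with a lower score, the RUNX2 peak stood higher in 17 pairs and the MTA1 peak in 17. The lists differ in length, so the rank counted from the top of each list can order a pair the other way. At SOD1 the RUNX2 peak had the higher percentage (69% against 57.3%), but the MTA1 peak stood nearer the top (rank 18097 against 19064). Over the pairs the ranks rose together (Spearman's rho 0.605, a description, as the pairs share their libraries and several share a gene). The pair furthest from equal percentages lay at the USP4 start near GPX1, where the RUNX2 peak ranked above 86% of its list and the MTA1 peak above 44.1%. Next came a pair just inside TXN, also with RUNX2 higher (60% and 23.8%), and a pair beside the PRDX3 start with MTA1 higher (3.93% and 40%).

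**Figure D3:**
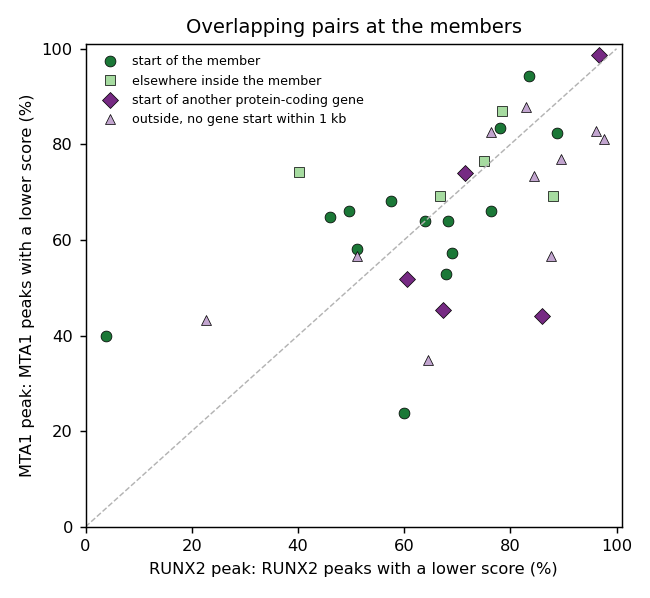
The 34 overlapping pairs at the members, each point 1 pair, with the percentage of RUNX2 peaks that scored lower than its RUNX2 peak (horizontal axis) and of MTA1 peaks that scored lower than its MTA1 peak (vertical axis). Symbols give the place of the RUNX2 peak and the dashed line marks equal percentages. The lists differ in length, so the line is not one of equal rank counted from the top. The points lie evenly about the line, 17 on either side, and the highest is the pair at the POLR2E start near GPX4 (96.7% and 98.6%).

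Among the superoxide dismutases, SOD2 had 9 RUNX2 and 4 MTA1 peaks and the others had 1 per list at most. The length searched was 133 kb at SOD2, 49.2 kb at SOD1 and 45.3 kb at SOD3. Per 100 kb, SOD2 had 6.76 RUNX2 and 3 MTA1 peaks, SOD1 2.03 and 2.03, and SOD3 0 and 2.21. SOD1, the copper and zinc enzyme of the cytosol, had 1 RUNX2 peak at chr21:31659532-31659659 (score 10.1, 69% of the list lower). Its 1 MTA1 peak, chr21:31659526-31659817 (score 8.69, 57.3%), contained the RUNX2 peak whole. Both lay within 0.1 kb of an end of SOD1, in a stretch shared with its divergent transcript SOD1-DT. SOD3 had only an MTA1 peak, chr4:24795066-24795181, 450 bp before its start, with a score of 5.85 (30.5%) and the narrowest width in the MTA1 list, 116 bp. None of the 250 bases printed for SOD3 lay under a peak, so the 2 lists leave this start bare except for a weak peak further out.

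SOD2, the manganese enzyme of mitochondria, spans 93.2 kb and has 4 annotated starts, and peaks of both lists lay within 1 kb of every one of them. Its 9 RUNX2 peaks were more than 93.1% of protein-coding genes had, and its 4 MTA1 peaks more than 69.4% had. These counts are not adjusted for the 133 kb searched. Per 100 kb SOD2 had 6.76 and 3 peaks, beside 7.41 and 5.73 over all members. All 4 MTA1 peaks overlapped a RUNX2 peak, and 5 of 9 RUNX2 peaks overlapped an MTA1 peak.

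At the outermost SOD2 start, RUNX2 peaks lay at chr6:159761972-159762151 (score 9.94, 68.2% of the list lower) and chr6:159762232-159762417 (8.76, 64%). A single wider MTA1 peak, chr6:159761980-159762455 (9.88, 63.9%), overlapped both. The start of ACAT2, a thiolase gene, lay within 1 kb of these peaks. Peaks here cannot be told apart as peaks of SOD2 or of ACAT2.

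The middle SOD2 starts, 34.9 and 35.3 kb further in, share their region with WTAP, a subunit of the RNA methyltransferase complex. RUNX2 peaks lay there at chr6:159726977-159727105 (6.19, 46%) and at chr6:159727449-159727607 (12.2, 75%). The first overlapped an MTA1 peak, chr6:159726917-159727163 (10, 64.8%), and the second, the highest-scoring RUNX2 peak at any SOD2 start, overlapped none. Again the start of the neighbour lay within 1 kb, so the gene to which these peaks belong cannot be told apart.

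The innermost SOD2 start, 69 kb from the outermost, was the one with no other protein-coding start within 1 kb. It carried a RUNX2 peak at chr6:159693447-159693627 (6.67, 49.7%), which lay whole within an MTA1 peak at chr6:159693430-159693819 (10.3, 66.1%). Both were centred upstream, by 296 and 384 bp, and they reached only the far end of the printed window, the RUNX2 peak its first 45 bases, shown in capitals, and the MTA1 peak its first 62. The full window of 300 bases at this start was rich in CpG (40 CpG, 78.3% G and C, against medians of 14 and 58.7% over all windows). Its part outside the RUNX2 peak was not measured apart. The RUNX2 peak at the start that SOD2 does not share was thus of middle rank in its list, below the RUNX2 peaks at the shared starts except for 1.

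The highest-scoring RUNX2 peak of SOD2, chr6:159760640-159760914 (21.1, 88.1%), lay at none of the starts but 1.5 kb inside the outermost one, within the non-coding gene SOD2-OT1. It overlapped an MTA1 peak over 225 bp (11.1, 69.3%). The remaining 3 RUNX2 peaks, 2 inside the gene and 1 upstream within ACAT2, ranked above 12.5, 24.5 and 22.9% of the list and had no MTA1 partner. When only peaks with no other annotated gene's end nearer were counted, SOD2 kept 0 of its 9 RUNX2 and 1 of its 4 MTA1 peaks. The inner starts of SOD2 are not ends of the gene, so peaks at them are assigned to neighbours under that rule. ACTB, the gene used as the negative control in the qChIP of the study, had peaks within 1 kb of an end too: the strongest ranked above 59% of the RUNX2 list (7.87) and 77.6% of the MTA1 list (14). The start of ACTB was not in the window table, so either end was used, which is not like for like with the SOD2 starts. The site of the study's ACTB primers was not looked up, so these values do not say whether it lay under a peak. In the RUNX2 list the order of SOD2 and ACTB depended on the start taken: the peak at the start region shared with WTAP ranked higher than that of ACTB (75% against 59%), and the peak at the unshared start ranked lower (49.7%). In the MTA1 list the strongest SOD2 start peak, at the unshared start, ranked lower than that of ACTB (66.1% against 77.6%).

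**Figure D4:**
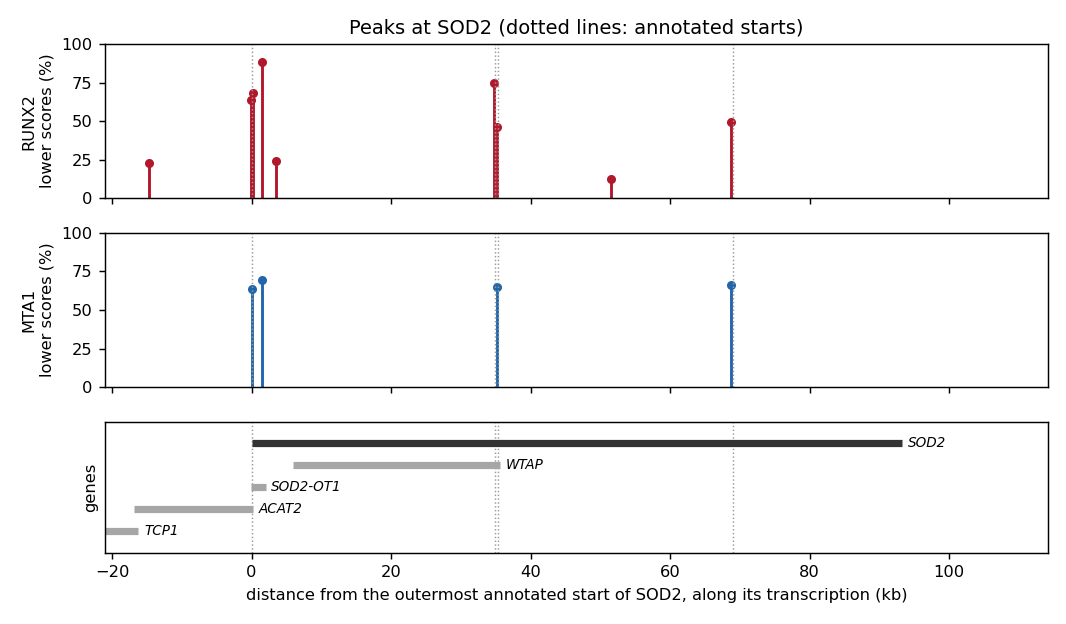
RUNX2 peaks (top, red) and MTA1 peaks (middle, blue) around SOD2, placed by distance in kb from its outermost annotated start along the direction of SOD2 (horizontal axis), with height giving the percentage of the same list with a lower score; dotted lines mark the 4 annotated starts and the bottom panel shows SOD2 (black) and its neighbours (grey). Both lists have peaks at the start at 0, at the pair near 35 kb and at 69 kb, and the tallest RUNX2 peak (88.1%) stands 1.5 kb inside the outermost start.

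CAT, which encodes the peroxisomal enzyme that splits hydrogen peroxide, had 1 start peak in each list, and these overlapped almost end to end. The RUNX2 peak lay at chr11:34438637-34439041 (13.5, 78%) and the MTA1 peak at chr11:34438650-34438998 (16.9, 83.4%), and both covered all 250 bases printed for CAT. The RUNX2 peak scored above the strongest start peak, if any, of 80.3% of protein-coding genes and the MTA1 peak above that of 80.2%. A further pair lay 11.5 kb upstream, with chr11:34427345-34427603 (17.5, 84.4%) for RUNX2 and chr11:34427442-34427609 (12.4, 73.3%) for MTA1. The last 2 peaks, 1 of each list, were of the narrowest width and low rank (20.8% for RUNX2, inside the neighbour ELF5, and 16.9% for MTA1) and did not overlap.

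GPX1, the abundant cytosolic glutathione peroxidase, had the highest-ranked MTA1 start peak of the members, chr3:49358272-49358814 (27.9, 94.3%), above that of 91% of protein-coding genes. It overlapped a RUNX2 peak of similar width, chr3:49358309-49358888 (17, 83.6%), over 506 bp. A second RUNX2 peak just inside the gene, chr3:49357749-49357896 (14.3, 79.5%), had no MTA1 partner. The gene spans 1.18 kb, so most of its 10 RUNX2 and 6 MTA1 peaks belonged to the surroundings. The highest-ranked RUNX2 peak of all members, chr3:49378265-49378823 (43.4, 97.7%), was centred 20.2 kb from the GPX1 start inside RHOA, the gene of a small GTPase, with an MTA1 peak over nearly its full length (15.7, 81.2%). On the other side, 2 pairs lay at the start of USP4, a ubiquitin protease gene, and 2 more between USP4 and GPX1.

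GPX4, which reduces lipid peroxides in membranes and restrains ferroptosis, was the member with the strongest RUNX2 start peak. That peak, chr19:1103730-1104108 (21.8, 88.8%), scored above the start peak of 90.4% of protein-coding genes. The MTA1 peak, chr19:1103749-1104093 (16.3, 82.3%), lay inside it, and 245 of the 250 bases printed for GPX4 lay under both. Just upstream lay a still higher RUNX2 peak, chr19:1102535-1102825 (36.5, 96.2%), centred 1.31 kb before the start, with an MTA1 peak of 16.6 (82.7%) over 200 bp. A further pair stood 2.03 kb upstream (76.4% for RUNX2 and 82.5% for MTA1). No other gene end was nearer than that of GPX4 to these 3 pairs. The highest pair in reach, by contrast, belonged to the start of POLR2E, an RNA polymerase subunit gene, with 38.7 (96.7%) for RUNX2 and 43.4 (98.6%) for MTA1. The remaining pairs lay inside SBNO2, 8.86 and 18.5 kb away.

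PRDX1, the main cytosolic peroxiredoxin, had 1 pair of its own, chr1:45521742-45522188 for RUNX2 (12.8, 76.3%) and chr1:45521746-45522201 for MTA1 (10.3, 66.1%). The pair overlapped over 443 bp and lay 0.92 kb inside an end of the gene. Its other peaks lay at the starts of neighbours: a pair at TESK2 (71.4% and 74%) and an MTA1 peak without RUNX2 partner at MMACHC and CCDC163 (13.6, 76.4%).

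PRDX3, the peroxiredoxin of mitochondria, carried weaker peaks at its start and stronger ones away from it. Centred almost on the start were a RUNX2 peak, chr10:119178682-119178930 (9.8, 67.8%), and an MTA1 peak, chr10:119178712-119178934 (7.93, 52.8%). Beside them, 0.297 kb inside the gene, lay a pair of low rank (3.93% for RUNX2 and 40% for MTA1). Higher in both lists were a pair 6 kb inside the gene (12.2, 75% and 13.6, 76.5%) and a pair 11.8 kb upstream, chr10:119190414-119190761 for RUNX2 (16.5, 82.9%) and chr10:119190454-119190932 for MTA1 (20.1, 87.8%). No gene end of any kind was nearer to that upstream RUNX2 peak than the end of PRDX3. One pair in reach lay at the start of SFXN4 (67.3% and 45.4%).

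TXN, which encodes the small protein that hands electrons to peroxiredoxins, ranked lowest by its strongest RUNX2 start peak among the 9 members with one. Just upstream of the start lay chr9:110256625-110256928 for RUNX2 (6.84, 51.1%), inside chr9:110256596-110256999 for MTA1 (8.8, 58.2%). Some 0.85 kb inside the gene lay chr9:110255562-110255754 for RUNX2 (8.04, 60%), which shared 46 bp with a narrowest-width MTA1 peak, chr9:110255492-110255607 (5.34, 23.8%). The remaining RUNX2 peak, inside the gene, ranked above 46.3% of its list and stood alone.

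TXNRD1, the selenoprotein that recharges thioredoxin in the cytosol, spans 135 kb and differed from the other members in that its outermost annotated start had no peak of either list within 1 kb. The inner start, 71.3 kb further in, carried 3 RUNX2 peaks and 1 MTA1 peak. The RUNX2 peaks were chr12:104286717-104287064 (7.67, 57.6%), chr12:104287190-104287327 (8.81, 64.2%) and chr12:104286177-104286295 (3.31, 3.93%). The MTA1 peak, chr12:104286429-104287031 (10.8, 68.1%), overlapped the first of them over 315 bp, and all 250 bases printed for the inner start lay under both. With the outermost start alone, the members with a RUNX2 start peak would number 8 of 10 (47.8% of protein-coding genes by the same rule) and those with an MTA1 start peak 9 of 10 (49.3%), counts added after the data had been seen.

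The strongest peaks of TXNRD1 lay before the inner start. A pair centred 6.13 kb upstream of it, at an end of the antisense gene TXNRD1-AS1, comprised chr12:104280745-104281056 for RUNX2 (13.6, 78.4%) and chr12:104280752-104281074 for MTA1 (19.3, 86.9%). Another pair 9.49 kb upstream ranked above 66.8% and 69.1%. In the first few kb after the outermost start, a pair 3.86 kb inside ranked above 40.2% of the RUNX2 list and 74.3% of the MTA1 list. Near it lay an MTA1 peak (52.8%) and a RUNX2 peak (13.7%) without partners. The 3 RUNX2 peaks of the narrowest width (99 bp) inside the gene ranked above 16.9, 41.8 and 20.8% of the list, and none had a partner.

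**Figure D5:**
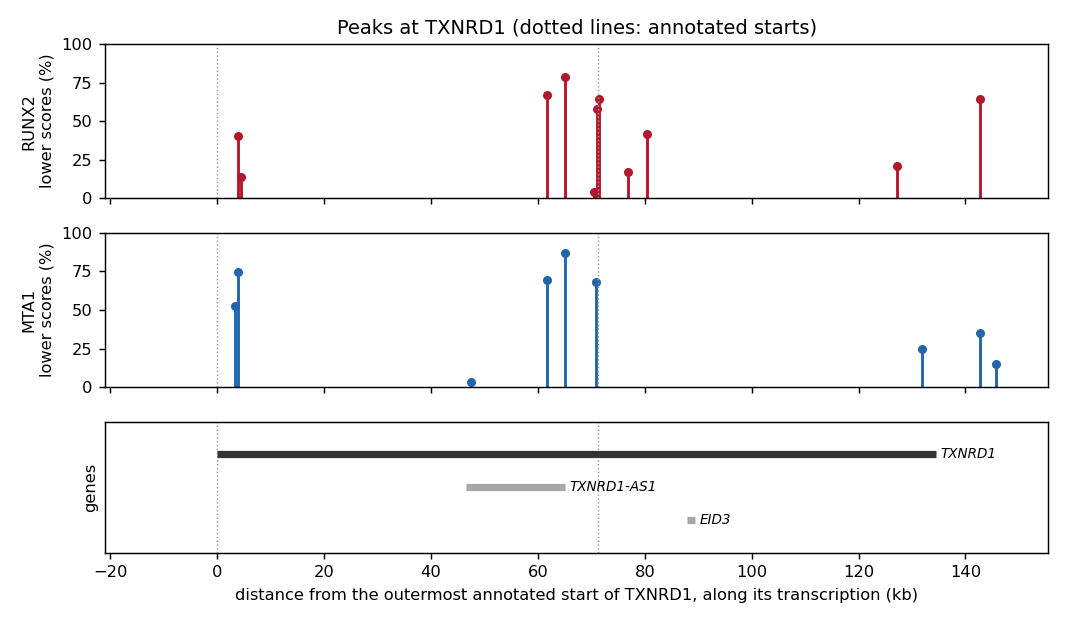
RUNX2 peaks (top, red) and MTA1 peaks (middle, blue) around TXNRD1, placed by distance in kb from its outermost annotated start (horizontal axis), with height giving the percentage of the same list with a lower score; dotted lines mark the 2 annotated starts and the bottom panel shows TXNRD1 (black) and other genes (grey). No peak stands at 0 kb, peaks of both lists stand at the inner start at 71.3 kb, and the tallest peaks (78.4% and 86.9%) stand about 6 kb before it, at the end of TXNRD1-AS1.

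The promoter windows of the members, 300 bases from 250 before to 50 after a start, were searched on both strands for 5 motifs, with positions counted from 0 at the start itself. A match describes letters and not a bound site, and matches of different motifs did not overlap in these windows. The windows numbered 14 for 8 genes. TGTGGT, the usual core of a runt-domain site, occurred in 2 of them, beside 13.1% of 35116 windows of all genes. One was the inner TXNRD1 window, at positions -183 to -178 from the start, under a peak of both lists and within the capitals printed above. The other was the innermost SOD2 window, at positions 9 to 14, under no peak. The variant TGCGGT was in none of the 14 windows (7.29% of all windows).

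TGACNNNGC, the core of the antioxidant response element, occurred in both TXNRD1 windows and in no other member window, beside 13.3% of all windows. At the inner start it lay on the opposite strand at positions -102 to -94, under both peaks, and at the outermost start at positions -99 to -91 and, on the opposite strand, -8 to 0, under none. TGANTCA, an AP-1 site, was in none of the 14 windows (7.71% of all). The GC box GGGCGG was in 13 of 14 windows, SOD3 being the exception, beside 45% of all windows. The SOD3 window had 11 CpG, against 12 to 43 in the other member windows. The outermost TXNRD1 window, with a GC box and 27 CpG, had no peak of either list within 1 kb. The inner TXNRD1 window, with 12 CpG, had peaks of both. Whether these traits of the sequence bear on the peaks was not tested.

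The 20 further genes of the glutathione, peroxiredoxin and thioredoxin systems were set beside the members, and the difference between the groups was not tested. A RUNX2 peak lay within 1 kb of a start at 14 of 20, an MTA1 peak at 15 of 20 and both at 14 of 20, again beside 49.8, 51.2 and 44.3% of protein-coding genes. GPX3, the plasma peroxidase, had an MTA1 start peak alone, as SOD3 did among the members. GPX2, GPX7, GPX8, TXNRD2 and TXNRD3 had neither. The highest RUNX2 start peaks of this list, at GCLM (44.4, 97.8%), PRDX5 (41.3, 97.3%) and TXN2 (40.3, 97.1%), ranked above the GPX4 peak. GCLM is a subunit of the enzyme that starts glutathione synthesis, and TXN2 is the mitochondrial thioredoxin. The highest MTA1 start peaks were at PRDX5 (32.3, 96.1%), GSR (23.8, 91.5%) and PRDX6 (23.3, 91.1%), of which that of PRDX5 ranked above the GPX1 peak.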

How the data were processed

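Libraries for RUNX2 and MTA1 were made by the authors from MDA-MB-231 cells, 1 per antibody, by CUT&Tag according to the methods, while the labels describe end repair and adaptor ligation. The submitters' processing notes name CASAVA 1.4, Bowtie 0.12.8, MACS, MACS2 and hg19, with no role or order. For each library the authors deposited a peak list with position and score. Since its unit is not given in the sources used here, the score served only to rank peaks within a list, and ties share a rank. Read counts were not used here, so depth is unknown.

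Genes and starts came from RefSeq on GRCh38.p14. Although the notes name hg19, the listed positions match GRCh38: in 10 of 10 member regions (5 Mb on either side), in both lists, more peaks lay within 1 kb of ends of protein-coding genes at the listed positions than after moves of up to 500 kb in steps of 50 kb. Over all peaks the shares were 17.5% against at most 4.45% for RUNX2 and 24.6% against at most 4.97% for MTA1. Positions are given 1-based, with 1 added to each start in the lists.

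A peak counted for a gene inside it or within 20 kb, and for a start when within 1 kb of any annotated start. For genes whose start was not in the window table (4195 of 20037), either end was used. Peaks overlapped when sharing at least 1 bp. Shares carry exact (Clopper-Pearson) 95% intervals. No p-value was computed. The code for overlaps was tested on simulated lists. Mitochondrial peaks (17 for RUNX2, 15 for MTA1) were not used. Promoter windows (35116) were searched for exact motif matches; peak sequences were not read. Scripts ran in Python 3.11.15 with scipy 1.17.1, pandas 2.3.3, numpy 2.4.6 and matplotlib 3.10.9.

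The members, the list of 20 further pathway genes and the rules were chosen with earlier results of these data known. All members were named, with the 3 highest further genes per list, neighbours holding or nearest to a peak, and ACTB. Alternatives were a reach of 5 kb, the gene span alone, starts within 3 kb or 250 bp, the 10000 highest-scoring peaks, peaks reaching the median score, peaks wider than the narrowest, no other gene end nearer, overlap of at least 50% of both peaks and centres within 200 bp. The outermost start alone, and leaving out peaks at starts of other genes, were added after seeing the data.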

Additional observations from a re-analysis of the deposited data

How the results depend on the processing

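Counts of members with a peak changed by more than 1.5 times under 1 setting, the 10000 highest-scoring peaks of each list: RUNX2 peaks were then found at 4 members, MTA1 peaks at 5 and both at 3 (38.5, 47.9 and 31.5% of protein-coding genes), 1 (GPX4) had a RUNX2 start peak and 3 (CAT, GPX1 and GPX4) an MTA1 start peak, 9 RUNX2 peaks (17%, against 16.2% of the list) and 11 MTA1 peaks (26.8%, against 23.5%) were left, and 45.5% of the latter overlapped. That setting keeps fewer peaks by construction. The number of peaks depended on the reach, as a shorter reach holds fewer: 34 RUNX2 and 25 MTA1 peaks with 5 kb, 29 and 20 in the gene span alone, and 21 and 20 where no other gene end was nearer, a setting that left SOD2 with 0 RUNX2 and 1 MTA1 peak. When 50% of each peak had to overlap, the overlapping share was 49.1% for RUNX2 and 63.4% for MTA1. The shares over all peaks given above use the 1 bp rule on the whole lists. They are not a background for this rule or for the overlap among the 10000 highest-scoring peaks. The other 42 values stayed within 1.5 times of those reported for counts, or within the interval of the share. They include the settings added after seeing the data, with 44 RUNX2 and 33 MTA1 peaks away from starts of other protein-coding genes. In the gene span alone SOD1 lost its RUNX2 peak. SOD3 lost its MTA1 peak there too, and when peaks under the median score or of the narrowest width were left out. No paired analysis was possible because each antibody has 1 library. Depth is unknown, so a missing peak cannot be separated from a weak one.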

Other observations

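The study's separate qChIP assay of SOD2 used a pair of primers. Neither of these 2 primers matched any of the 4 SOD2 promoter windows exactly on either strand, so the start of SOD2 that assay measured could not be placed among the 4 starts described here.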
